A study of Mus musculus with 8 samples.

Results

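The 2 arrays of CT26 tumors treated with the EP4 antagonist TP-16 together with an anti-PD-1 antibody were compared with the 2 arrays of tumors that received the antibody alone, to ask what TP-16 adds to the antibody. The 4 arrays were chosen by their titles (BY001+PD1-1 and BY001+PD1-2, PD1-1 and PD1-2, BY001 being TP-16) out of 8 arrays in all, and every probe that is not a control was considered. CT26 is a colorectal carcinoma cell line of BALB/c mice. All tumors grew under the skin of female BALB/c mice (6 to 10 weeks old by the methods, which give this range for all strains used) from 500000 implanted CT26 cells. Treatment began at tumor volumes of 100 to 200 mm3 and lasted 2 weeks. The anti-PD-1 group received 50 µg of antibody per mouse into the peritoneum, 2 doses a week. The combination group received the same antibody and TP-16 by mouth at 75 mg/kg every day. The other 4 arrays (vehicle, and TP-16 alone at the same dose) were used to estimate the spread and to set TP-16 with the antibody beside TP-16 without it. Each group has 2 samples, which the series design calls independent biological replicates. Neither the labels nor the methods say whether a sample was 1 tumor or a pool. All hosts were immune-competent, and RNA came from whole tumor tissue, so that fewer cells of a type and less RNA per cell cannot be told apart.

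Prostaglandin E2 is made from arachidonic acid by the cyclooxygenases and the prostaglandin E synthases, and acts through 4 receptors, EP1 to EP4. EP2 and EP4 couple to Gs and raise cyclic AMP, which activates protein kinase A and the transcription factor CREB, and in myeloid cells this signal is known to favor suppressive programs. PD-1 is an inhibitory receptor of activated T cells, and its ligand PD-L1 is carried by tumor and myeloid cells.

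Levels are in log2 units relative to the 75th percentile of each array's intensities, and a fold change as the difference of group means on this scale. A probe was called when it differed by at least 2-fold with an unadjusted p of at most 0.05 in limma, the threshold of the study's methods. Of 31912 tested probes, 1364 were called between the combination and anti-PD-1 (4.27%), 734 higher (2.3%) and 630 lower (1.97%) under the combination. Per gene, with the brightest probe standing for a gene, 514 of 21616 genes were called higher (2.38%) and 501 lower (2.32%). With Benjamini-Hochberg adjustment in limma, 5 probes passed (0.0157%), all of them lower and dim on both combination arrays, and 0 passed in the higher direction. The direction depended on the setting: 0 were higher without the filter on dim probes (5 passed) and with the replicate block (6 passed), whereas with trended and robust moderation 430 passed, 190 of them higher, and among probes bright on all 8 arrays 266 passed, 96 of them higher. The single genes below are past the unadjusted threshold only, unless stated otherwise. Without the fold limit, 8348 probes had an unadjusted p of at most 0.05, and the methods' t-test gave 0 after adjustment.

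The 2 groups differed in brightness before scaling. The 75th percentile of intensity was 398.0 and 414.9 for anti-PD-1 against 607.1 and 733.6 for the combination, and each of these 4 arrays had 51.4% to 56.7% of its probes well above background. The combination and anti-PD-1 arrays lay in different columns of 1 slide, so column and TP-16 cannot be told apart. The scaling moved the direction of the calls: 53.8% of the called probes were higher on the 75th-percentile scale and 71.0% of 1357 after quantile normalization, and the median probe lay at -0.10 and -0.01 in log2 fold change. Of the 1364 probes, 1085 were called in the same direction with both scalings (691 higher and 394 lower), and 0 in opposite directions. The 2 arrays of each group had a correlation across probes of 0.991 in both groups. Between arrays of different groups the correlation was 0.972 to 0.987, so it was only a little lower there.

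The receptors of prostaglandin E2 came first, since TP-16 acts on one of them. Ptger4, which encodes EP4, stood at 0.71 and 0.28 under anti-PD-1 and at 1.30 and 1.87 with TP-16 added, with no overlap. Its log2 fold change was 1.09 (SE 0.31, adjusted p = 0.109), and its second probe gave 1.16. Ptger2, which encodes EP2, stood at -2.10 and -2.34 under anti-PD-1 and at -0.91 and -0.35 under the combination, for a log2 fold change of 1.59 (SE 0.33, adjusted p = 0.0742). Both receptors were called higher when TP-16 was added. Without combination replicate 2 or anti-PD-1 replicate 2, Ptger4 had 0.80 and 0.87 and was not called, nor was it with the methods' t-test. Ptger1 (EP1) was dim and differed by 0.26 (adjusted p = 0.670), and Ptger3 (EP3) was not tested for want of signal. With TP-16 alone against vehicle the log2 fold changes of Ptger4 and Ptger2 were 0.67 and 0.76, past neither threshold, and the difference between both settings passed no threshold for either gene. Of 18 tested genes of prostaglandin synthesis, transport and breakdown, 2 were called higher and 0 lower. They were Hpgd, the dehydrogenase that inactivates prostaglandins (log2 fold change 1.37), and Tbxas1, the thromboxane synthase (1.06). The count of 2 was 1 with normexp background correction or the methods' t-test, and 3 in a fit of the 2 groups only. Ptgs2, the inducible cyclooxygenase, had a log2 fold change of -0.08.

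Downstream of cyclic AMP, 1 of 29 tested genes of the early CREB response was called higher and 1 lower. Areg, a ligand of the epidermal growth factor receptor and a known CREB target, stood at 0.19 and 0.78 under anti-PD-1 and at -0.89 and -1.35 under the combination. Both combination arrays were the lowest of all 8, and the log2 fold change was -1.60 (SE 0.37, adjusted p = 0.0818). Areg was also lower with TP-16 alone (-1.17, unadjusted p = 0.0202 by limma). Pde10a, a phosphodiesterase that degrades cyclic nucleotides, was well above background on the 2 combination arrays and on no other array. It entered the test through them alone and was at least 1.29-fold higher (adjusted p = 0.0722, set against the spread of arrays at background). Among probes bright on all 8 arrays, and with normexp background correction, 0 genes of the list were called higher. Fos was 0.95 higher on the log2 scale (unadjusted p = 0.00083 by limma), just under 2-fold. Without anti-PD-1 replicate 1 or combination replicate 1, 3 genes of the list were called higher. The rest of the list lay between -0.47 and 0.92 in log2 fold change. The stretch before the annotated start of Areg is shown because it holds a full cyclic AMP response element. It is the RefSeq sequence at chr5:91139479-91139598 of the GRCm38.p6 build, plus strand, with the element TGACGTCA in capitals, 61 bases before the start.
Areg: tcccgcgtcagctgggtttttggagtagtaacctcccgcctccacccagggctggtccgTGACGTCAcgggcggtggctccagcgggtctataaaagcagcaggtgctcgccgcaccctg
On both strands, TGACGTCA occurs in 1.79% of 32851 RefSeq promoter windows and for 3.20% of the 12776 tested genes with a window. Of the 20 genes of this list with a window, 2 have it (Areg and Dusp1). Among genes with a window it occurs for 3 of 343 called higher (0.87%) and 3 of 218 called lower (1.38%), both below the share of tested genes.

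**Figure D1:**
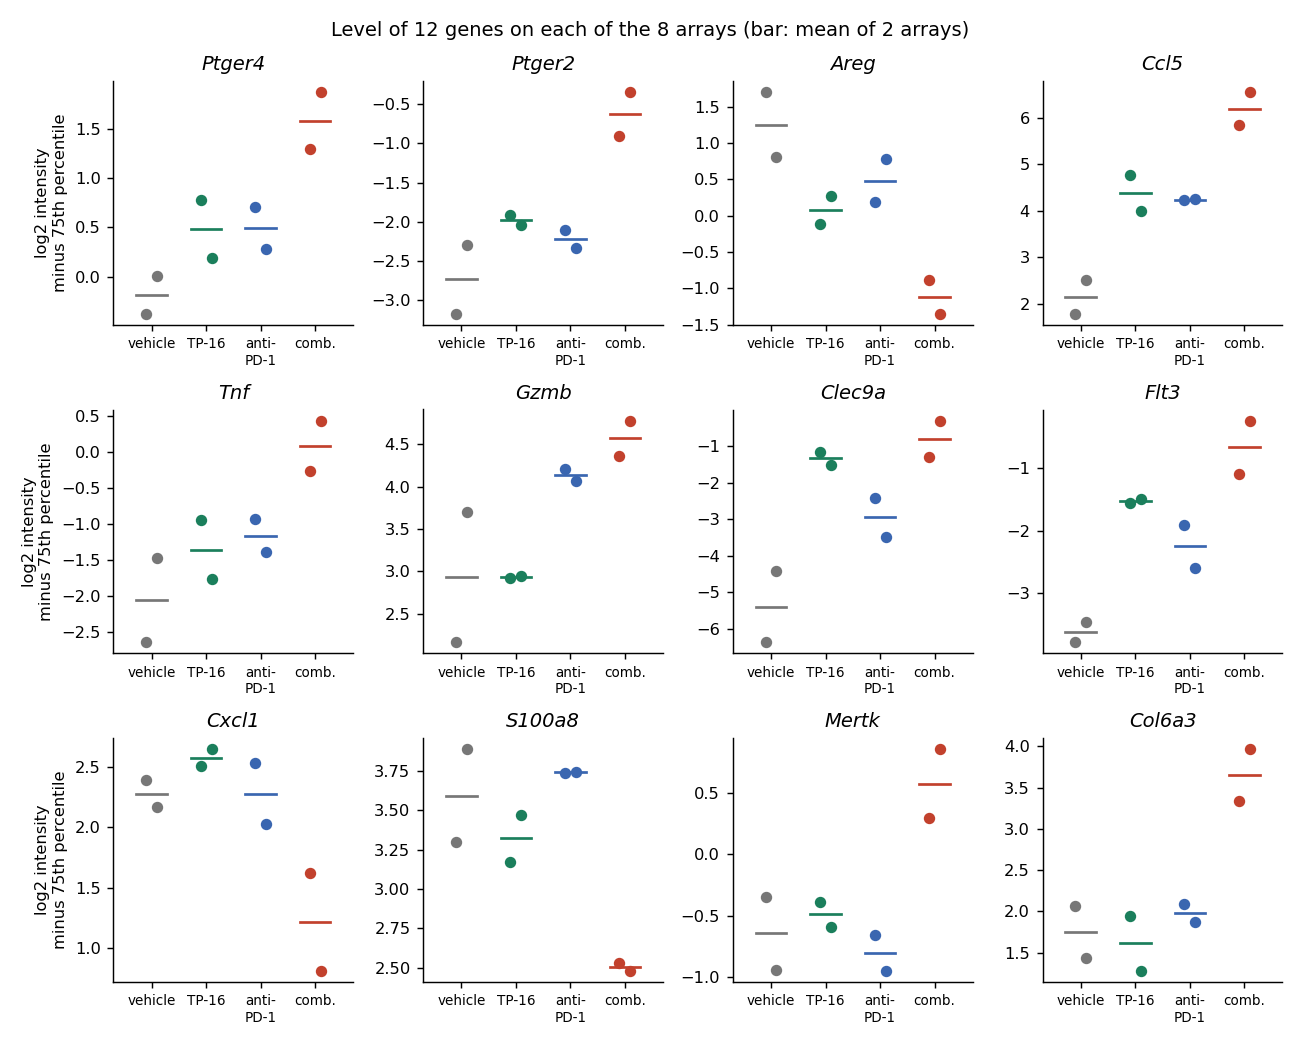
Level in log2 units relative to the array's 75th percentile (vertical axis) of 12 genes in the 4 groups, 1 point per array and a bar at the mean of 2 arrays; each panel has its own scale. On the combination arrays Ptger4, Ptger2 and Ccl5 lie above, and Areg, Cxcl1 and S100a8 below, every other array.

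Among T-cell effector genes, 1 of 8 was called. Tnf, the inflammatory cytokine, stood at -0.94 and -1.39 under anti-PD-1 and at -0.26 and 0.44 under the combination, for a log2 fold change of 1.25 (SE 0.49, adjusted p = 0.180). Its second probe gave 0.89. Tnf was not called without combination replicate 2 (0.90), without anti-PD-1 replicate 1 (1.48) or 2 (1.02), with the replicate block (unadjusted p = 0.0637 by limma), with the methods' t-test or without the filter on dim probes. Gzmb, the serine protease of cytotoxic granules, stood at 4.21 and 4.07 and at 4.37 and 4.78, with a log2 fold change of 0.44 (SE 0.47, adjusted p = 0.589). Ifng had 1.13 (SE 0.96, adjusted p = 0.488), Fasl 0.98 (SE 0.61, adjusted p = 0.350) and Prf1, which encodes perforin, 0.18 (SE 0.44, adjusted p = 0.821). For these genes the combination arrays lay above the anti-PD-1 arrays, but the fold changes were below about 2 standard errors. The error of Ifng also took in the vehicle arrays (-3.58 and -0.49). Lamp1, a marker of degranulation when it reaches the cell surface, had a log2 fold change of -0.21 with the 75th percentile and 0.36 with quantile normalization, so its direction turned with the scaling. The activation markers Cd69 and Il2ra had 0.82 (adjusted p = 0.185) and 0.37 (adjusted p = 0.594), and a second probe of Il2ra gave -0.48. The checkpoint pair was in the same range. Pdcd1, which encodes PD-1, had 1.04 (SE 0.55, adjusted p = 0.286) and Cd274, which encodes PD-L1, 0.82 (SE 0.43, adjusted p = 0.280). Without either vehicle array, or in a fit of the 2 groups only, Ifng and Pdcd1 were called higher, and Pdcd1 also with normexp background correction. Cd69 was called higher without anti-PD-1 replicate 1 (1.05) or combination replicate 1 (1.06).

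**Figure D2:**
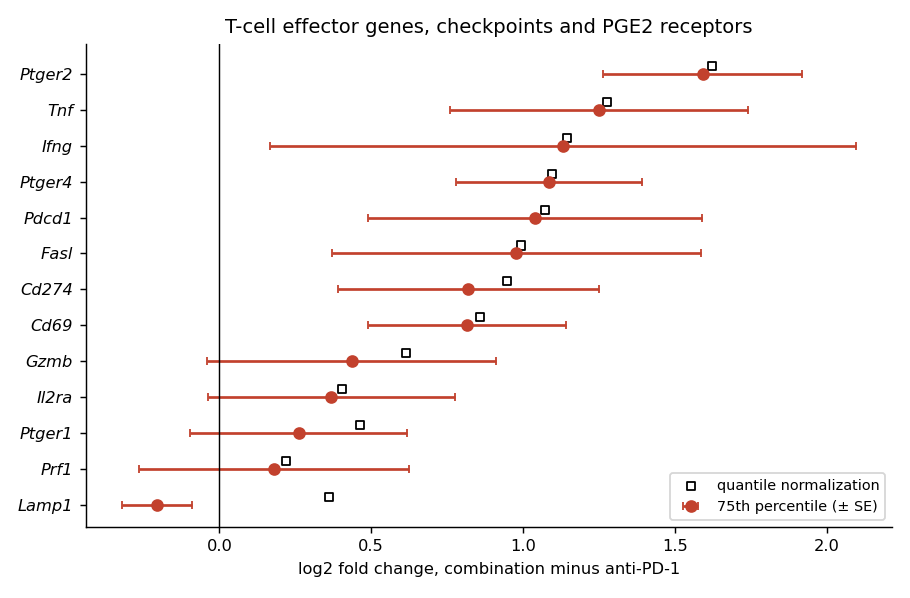
Log2 fold change between the combination and anti-PD-1 (horizontal axis) for 13 genes of T-cell function, the PD-1 checkpoint and the prostaglandin E2 receptors. Filled points with bars show the 75th-percentile scale with the SE of limma, and open squares the quantile-normalized value; Ptger2 has the largest value (1.59), and Lamp1 lies on opposite sides of 0 with the 2 scalings.

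Lists of marker genes widened this view. Across the lists, counts of the main fit are to be read against 2.38% of all genes called higher and 2.32% called lower. The median log2 fold change of all genes was -0.14. The share called higher was 3.07% with quantile normalization, 1.05% with normexp background correction and 1.7% among probes bright on all 8 arrays. Both shares also moved where 1 array was left out, so a list count in another setting is not to be read against the main shares. In the list of cytotoxic effectors, 2 of 19 genes were called higher, Tnf and Crtam (1.1), a receptor of activated cytotoxic cells. The granzymes were split. Gzmd, Gzme, Gzmf, Gzmg and Gzmc had log2 fold changes between -0.72 and -0.35, and Gzmk had 1.36, none of them called. Of 19 genes of the T-cell receptor and its coreceptors, 18 were above 0 and 17 did not overlap between groups (23.1% of all genes lay without overlap in this direction and 45.7% in the other), but 1 was called, Cd5 (1.29), an inhibitory receptor of T cells. Cd3e, a chain of the receptor complex, had 0.74 and Cd8a 1.18. Of 23 genes of T-cell activation and checkpoints, 3 were called higher. They were Btla (1.51) and Pdcd1lg2, the second PD-1 ligand (1.09), and Entpd1, the ectonucleotidase CD39 (1.1). Among 16 NK cell receptors Klrc1 was called higher (1.48) and Klra1 lower (-1.94). Among 13 B-cell genes Fcrla was called higher (1.08) and Ms4a1, which encodes CD20, lower (-1.38). Of the 12 NK and 7 B-cell genes bright on all 8 arrays, 0 were called higher and 1 of each list lower. With the methods' t-test 0 of the NK list were called, and 3 of the B-cell list higher. With 1 array left out, 0 to 3 genes were called higher and 0 to 1 lower in each of these lists. The T-cell counts depended on the arrays used. Without combination replicate 2, or without anti-PD-1 replicate 2, 0 genes of the T-cell receptor list and 0 of the checkpoint list were called. Without either vehicle array, or in a fit of the 2 groups only, 9 of the 19 and 7 of the 23 were called, all higher. Of the cytotoxic effectors 0 were called without anti-PD-1 replicate 1.

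Genes of dendritic cells held many calls. Dendritic cells take up antigen and present it to T cells, and the conventional type 1 subset cross-presents it to CD8+ T cells. Of 17 tested genes, 7 were called higher and 0 lower, with a median 1.06 above that of all genes. Clec9a, a receptor for dead cells on that subset, stood at -2.41 and -3.48 under anti-PD-1 and at -1.31 and -0.30 under the combination, for a log2 fold change of 2.14 (SE 0.72, adjusted p = 0.143). Flt3, the receptor of a growth factor that dendritic cells depend on, stood at -1.91 and -2.59 and at -1.10 and -0.24, a log2 fold change of 1.58 (SE 0.35, adjusted p = 0.0762). Irf4, a transcription factor of dendritic and lymphoid cells, had 1.75 (adjusted p = 0.161). Xcr1, the chemokine receptor of the type 1 subset, entered the test through the combination and TP-16 arrays. It was well above background on both combination arrays and on no anti-PD-1 array, and was at least 1.28-fold higher (adjusted p = 0.138). Itgax (CD11c), Itgae (CD103) and Wdfy4 completed the 7, at 1.31 to 1.48. Siglech, a marker of plasmacytoid dendritic cells, had -0.51. In 10 of the 17 genes TP-16 alone was also called higher than vehicle, against 1.55% of all genes. Among the 13 genes bright on all 8 arrays 4 were called. The count of 7 was 4 without combination replicate 2, 5 without anti-PD-1 replicate 2 and 2 with the methods' t-test.

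Antigen presentation by MHC class II showed a similar direction with a wider spread. All 9 tested genes were higher on both combination arrays than on both anti-PD-1 arrays (23.1% of all genes were), and the median lay 1.29 above that of all genes, but 0 were called. H2-Aa stood at 1.27 and 0.95 under anti-PD-1 and at 2.53 and 3.26 under the combination (log2 fold change 1.78, SE 0.85, adjusted p = 0.245). The vehicle arrays set much of that error, at -2.76 and -0.02. Without either vehicle array 5 of the 9 were called. Of 18 genes of MHC class I and peptide loading 0 were called. Of 19 genes induced by interferon gamma, 1 was called, Nos2, the inducible nitric oxide synthase, which stood at 1.93 and 1.65 and at 2.80 and 3.28 (log2 fold change 1.25, SE 0.21, adjusted p = 0.0722). Without either vehicle array 3 of the 19 were called. Of 20 antiviral genes induced by type I interferon 0 were called, and their median lay 0.46 above that of all genes.

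**Figure D3:**
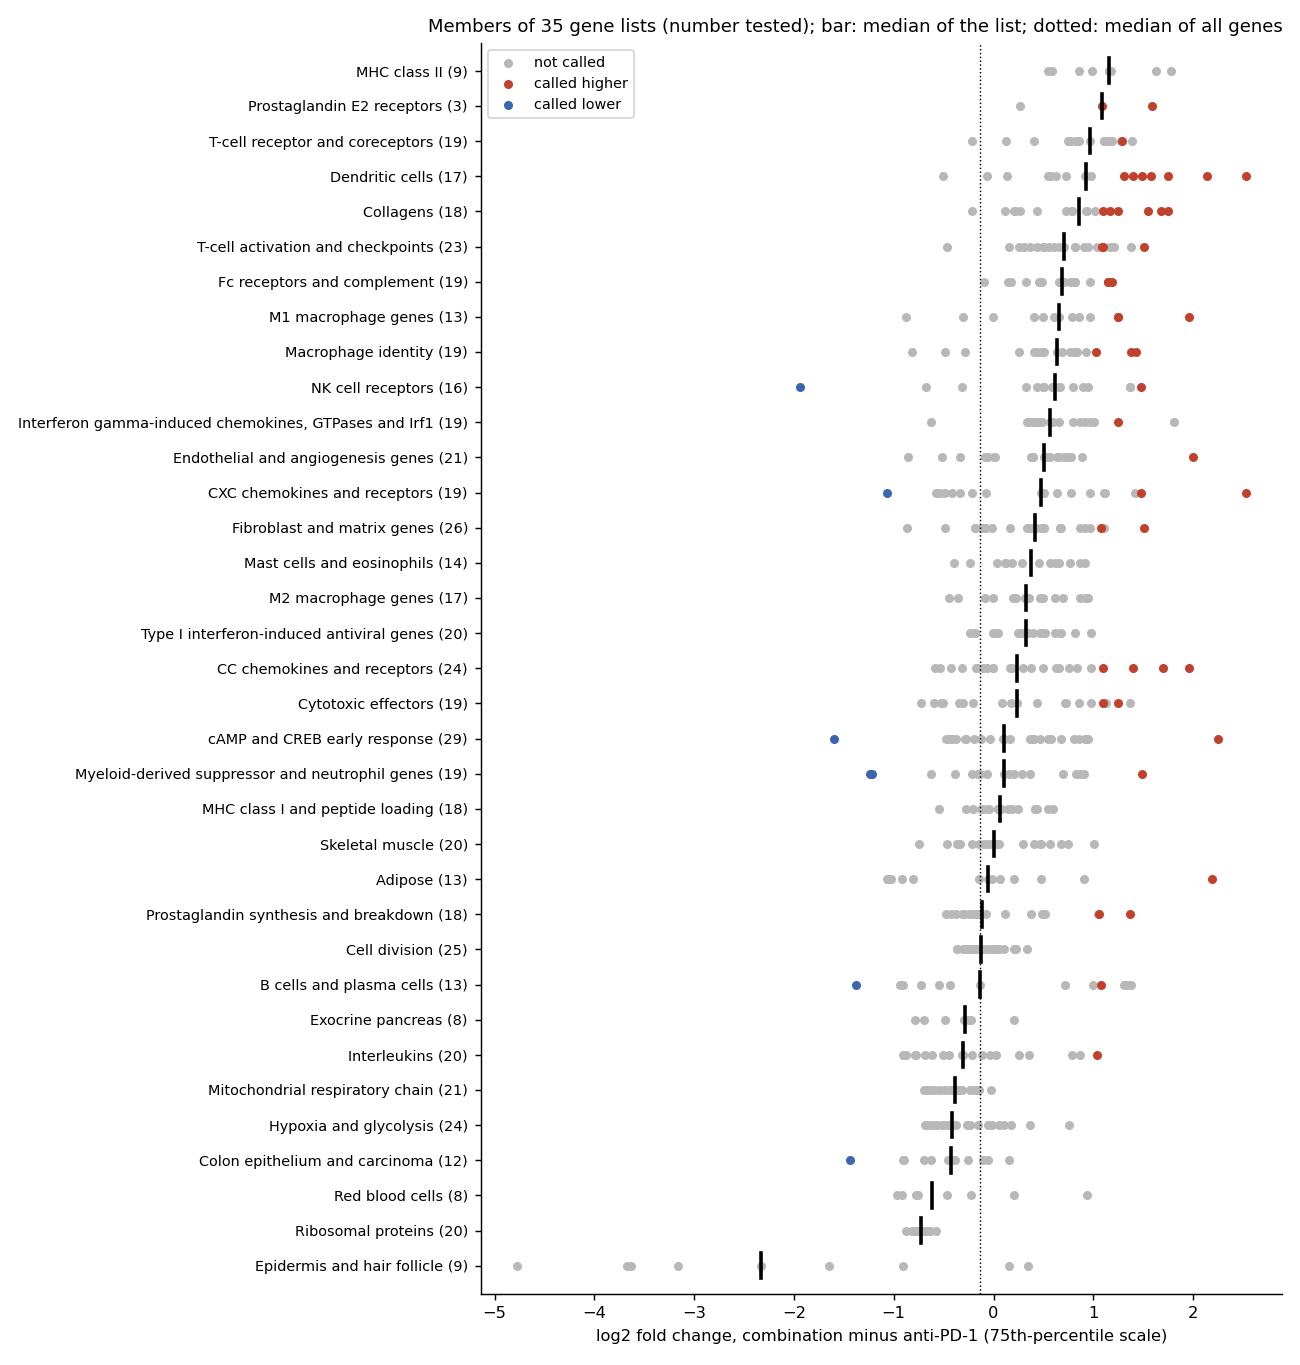
Log2 fold change between the combination and anti-PD-1 (horizontal axis) of each tested member of 35 gene lists, ordered by median, with called members in red (higher) or blue (lower), a bar at the median of the list and a dotted line at the median of all genes (-0.14). Dendritic cells (7) and collagens (6) hold the most red points, and the epidermis list at the bottom has wide values and 0 calls.

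Chemokine genes were called in both directions. Of 24 CC chemokines and receptors, 4 were called higher. Ccl5, which attracts T cells and monocytes, stood at 4.22 and 4.26 under anti-PD-1 and at 5.83 and 6.55 under the combination. Its log2 fold change of 1.95 (SE 0.38, adjusted p = 0.0722) was a 3.88-fold rise, and it was also called with TP-16 alone (2.23). Ccr9 had 1.40 and Ccl3 1.1. Ccl19, a ligand of the homing receptor CCR7, was well above background on the 2 combination arrays and on no other array, at a level that gives no bound above 1-fold. Without combination replicate 2, without anti-PD-1 replicate 2 or with the methods' t-test, 1 of the 24 was called, and 3 of 20 among genes bright on all 8 arrays. Of 19 CXC chemokines and receptors, Cxcr3, the receptor of interferon-induced chemokines on effector T cells, was called higher (1.47, adjusted p = 0.0791) with Xcr1, and Cxcl1 was called lower. Cxcl1, which attracts neutrophils, stood at 2.53 and 2.02 under anti-PD-1 and at 1.62 and 0.81 under the combination. The log2 fold change was -1.06 (SE 0.31, adjusted p = 0.112), and with TP-16 alone it was 0.30, a difference between both settings of -1.36 (unadjusted p = 0.0203 by limma). Without combination replicate 2 or anti-PD-1 replicate 1, 0 genes of this list were called lower. With the methods' t-test and with normexp background correction 0 of the list were called lower as well. Cxcl2 and Cxcl3, close relatives of Cxcl1 that also attract neutrophils, had -0.08 and -0.41. The stretch before the start of Cxcl1 is shown for the core of an NF-kappaB site, GGAATTTCC, in capitals 70 bases before the start (RefSeq, GRCm38.p6, chr5:90891125-90891244, plus strand).
Cxcl1: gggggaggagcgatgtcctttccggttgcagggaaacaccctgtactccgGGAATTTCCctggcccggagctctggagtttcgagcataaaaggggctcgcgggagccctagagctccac
Those letters, searched on both strands, occur in 0.317% of the 32851 windows (104 of them). They occur for 0.470% of tested genes with a window and for 3 of the 16 such genes of this list (Cxcl1, Cxcl2 and Cxcl3).

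Myeloid genes were read in lists of macrophages and granulocytes. Of 19 macrophage genes 3 were called higher, 7 without combination replicate 1 and 1 with the methods' t-test. Adgre1, a surface receptor that marks mouse macrophages, stood at 3.60 and 3.15 under anti-PD-1 and at 4.40 and 5.22 under the combination (log2 fold change 1.43, adjusted p = 0.0922). Mertk, a receptor for apoptotic cells, had 1.38 (adjusted p = 0.0726) and Apoe, the apolipoprotein of foamy macrophages, 1.03 (adjusted p = 0.0748). With TP-16 alone Mertk and Apoe had 0.15 and -0.16, and the difference between both settings had an unadjusted p of 0.0214 and 0.0093 in limma. Of 13 M1 genes 3 were called higher (Ccl5, Nos2 and Tnf). Of 17 M2 genes 0 were called in either direction, but 3 were called higher without anti-PD-1 replicate 1, 2 without combination replicate 1 and 1 with quantile normalization. Arg1, arginase 1, had 0.32 and Mrc1, which encodes CD206, 0.22. Of 19 genes of granulocytes and myeloid-derived suppressor cells, 1 was called higher and 2 lower. S100a8 and S100a9 encode the subunits of calprotectin, an abundant protein of neutrophils. S100a8 stood at 3.74 and 3.74 under anti-PD-1 and at 2.53 and 2.48 under the combination, and S100a9 at 5.23 and 5.11 and at 4.08 and 3.82. Their log2 fold changes were -1.23 (SE 0.21, adjusted p = 0.0722) and -1.22 (SE 0.25, adjusted p = 0.0733), and -1.17 and -1.05 with quantile normalization. In each fit that left out 1 array, and with the methods' t-test, 2 genes of this list were called lower. With TP-16 alone they had -0.27 and -0.15. Of the other 17 genes of the list 0 were called lower. Csf3r, the receptor of the granulocyte growth factor, had -0.15, Cxcr2 -0.21 and Mmp8 0.36. Fpr1, a receptor for bacterial peptides, was called higher (1.48), but 0 genes of the list were with the methods' t-test. In the list of Fc receptors and complement, 3 of 19 were called higher, C3 (1.19), C2 (1.15) and C4b (1.15). That count was 0 without anti-PD-1 replicate 2, without combination replicate 2 or with the methods' t-test, and 7 without anti-PD-1 replicate 1.

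Collagens were a further group of calls. Of 18 tested collagen genes 6 were called higher and 0 lower, and the median lay 1.00 above that of all genes. Col6a3, a chain of collagen VI in the matrix around cells, stood at 2.09 and 1.88 under anti-PD-1 and at 3.34 and 3.97 under the combination (log2 fold change 1.67, SE 0.34, adjusted p = 0.0740). Col6a2 had 1.55 (adjusted p = 0.114) and Col6a1 1.1 (adjusted p = 0.0745), so that these 3 chains of collagen VI were called together. Col1a1 had 1.16 (adjusted p = 0.125). Col11a1 and Col15a1 were well above background on the 2 combination arrays alone and entered the test through them, and were at least 2.12-fold and 1.33-fold higher. Of the fibroblast and matrix genes outside the collagens, Fbn1 (1.5), which encodes fibrillin, and Postn (1.08), periostin, were called among 26. That count was 5 higher and 1 lower without combination replicate 1, 4 higher and 1 lower without anti-PD-1 replicate 1, and 1 without replicate 2 of either group. Of the 26, 18 were above 0, and their median lay 0.55 above that of all genes. The summed level, which the most abundant members set, was 9.77 and 9.82 for anti-PD-1 against 9.66 and 9.55 for the combination. With TP-16 alone 0 collagens were called, and their median was -0.12. The difference between both settings had an unadjusted p of at most 0.05 in limma for 8 of the 18, against 7% of all genes, all 8 in the direction of more RNA with the antibody. That count was 5 without either anti-PD-1 array and 12 with normexp background correction. Among the 16 collagens bright on all 8 arrays 4 were called. The count of 6 was 9 with quantile normalization, 3 without anti-PD-1 replicate 2, 2 without combination replicate 2 and 3 with the methods' t-test.

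**Figure D4:**
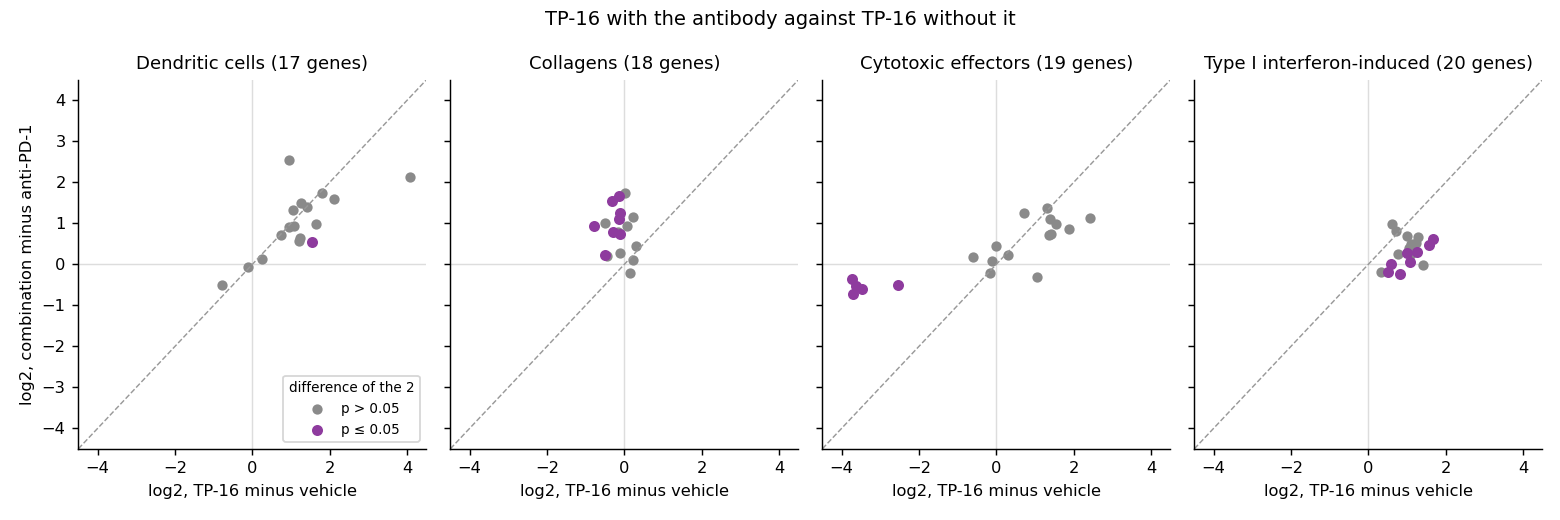
Log2 fold change of TP-16 added to anti-PD-1 (vertical axis) against that of TP-16 alone over vehicle (horizontal axis) for members of 4 lists, with a dashed line where both are equal; purple points have an unadjusted p of at most 0.05 for the difference. Most dendritic-cell genes lie near the line, most collagens above it near 0 on the horizontal axis, 5 granzymes far to the left, and the purple type I interferon-induced genes below the line.

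TP-16 with and without the antibody was also compared across all probes, with no array shared. Of the 1364 calls, 404 were also called in the same direction with TP-16 alone, which is 29.6% of these calls and 20.5% of the 1972 calls of TP-16 alone, and 83.4% had the same sign there (73.5% of all probes had). A difference between both settings was called for 0 probes after adjustment by limma, where the smallest adjusted p was 0.0704, and 2336 probes had an unadjusted p of at most 0.05. The counts of genes with an unadjusted p of at most 0.05 for the difference are read against 7% of all genes. Of 21 endothelial genes 11 had such a p. Pecam1, which encodes CD31, had 0.73 with the antibody and -0.34 without it. Tek, an angiopoietin receptor and the 1 called member, had 1.99 and -0.72. With the methods' t-test, with normexp background correction and among the 19 endothelial genes bright on all 8 arrays, 0 were called higher. That count of 11 was 2 without combination replicate 2 or anti-PD-1 replicate 2, 3 without TP-16 replicate 2 and 7 without either vehicle array. Among cytotoxic effectors the 5 granzymes Gzmc to Gzmg made up the 5 genes with such a p, and 8 and 11 genes had one without vehicle replicate 1 and 2. Gzmd had -0.53 with the antibody and -3.62 without it (unadjusted p of the difference 0.0022 by limma). In 8 of 20 type I interferon-induced genes the difference went the other way. That count was 2 without anti-PD-1 replicate 1, 3 without vehicle replicate 1, TP-16 replicate 2 or combination replicate 1, 5 without combination replicate 2 and 13 without vehicle replicate 2. Of 8 red blood cell genes 5 had such a p, and 2 without TP-16 replicate 2 or combination replicate 2; with TP-16 alone 6 of the 8 were called lower. Among the interferon-induced genes Usp18, which restrains interferon signaling, had 0.05 with the antibody and 1.07 without it.

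Genes with the largest single changes came from no one list. Among genes well above background on all 4 arrays that passed the unadjusted threshold with both scalings and did not overlap, 301 were higher and 143 lower. Lpl, the lipoprotein lipase, led the rises (probe at chr8:71430267-71430326 of the mm9 build). It stood at 1.36 and 1.05 under anti-PD-1 and at 2.99 and 3.81 under the combination, a 4.56-fold rise (adjusted p = 0.0802). The other 14 of the 15 largest rises had log2 fold changes of 1.67 to 2.14. Beside Clec9a, Ccl5, Irf4 and Col6a3, they were Cdkn1c, an inhibitor of cyclin-dependent kinases (2.08), Dnase1l3, a secreted nuclease of myeloid cells (1.81), Fgl2, a fibrinogen-like protein of immune cells (1.78), Abcg1, a cholesterol exporter (1.68), Sult1a1, a sulfotransferase (1.76), Myh10, a nonmuscle myosin (1.91), Myog, the muscle regulator myogenin (1.74), and Kcnj10, Mrap and Fbln7 (1.73 to 1.79). Myog is not on the list of 20 skeletal muscle genes, of which 0 were called. Lpl was the 1 called gene of 13 adipose genes, of which 3 were called lower without either vehicle array or with the methods' t-test.

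The 15 largest falls ran from -2.67 to -2.03. Rpph1, the RNA subunit of ribonuclease P, had the firmest values, at 2.64 and 2.58 under anti-PD-1 and 0.71 and 0.42 under the combination (log2 fold change -2.05, SE 0.26, adjusted p = 0.0722). Rprl2, a related ribonuclease P RNA, had -2.03, and the signals of its probe and that of Rpph1 are uncertain where their sequences are alike. Car6, a secreted carbonic anhydrase, had -2.03. Stfa2, a cystatin of myeloid cells, had -2.09 and Cers3, a ceramide synthase of the epidermis, -2.51. Cers3 differed between both settings, with 0.42 for TP-16 alone (unadjusted p of the difference 0.0058 by limma). The 9 genes Pgbd1, Igdcc4, Mlip, Mrgprg, Fmn2, Lypd6b, Shank2, Cdcp1 and Aff3 had -2.67 to -2.08, and TP-16 alone gave -2.33 to -1.94. In each of them combination replicate 2 was below combination replicate 1 by more than 1 on the log2 scale, and the adjusted p was 0.114 to 0.172. Rhox2h, a homeobox gene, was the last (-2.39).

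Where a gene was well above background in 1 group only, its change is a bound. Such genes were chosen for this contrast, so the p beside a bound is a description. There were 612 genes well above background on both combination arrays and on no anti-PD-1 array, and 84 with the reverse. A bound above 1-fold was reached by 315 and 84 of them, and a bound of at least 2-fold by 29 and 66, so that the balance turned with the size of the bound; the combination arrays were the brighter ones, and the part of brightness in these counts was not tested. Col6a5, a further collagen VI chain, was at least 3.47-fold higher (adjusted p = 0.145), and Sfrp1, a secreted inhibitor of Wnt signaling, at least 2.85-fold (adjusted p = 0.183). Ipcef1, Gpr141b and Evi2 followed at 2.75-fold to 2.83-fold or more. In the other direction Efcab13 was at least 10.71-fold lower (adjusted p = 0.0743), Ms4a5 at least 7.36-fold, Slc10a5 at least 4.95-fold, and Scn2a, a sodium channel, at least 3.88-fold. Scn2a stood at -1.62 and -4.01 under anti-PD-1 and at -4.86 and -4.97 under the combination. Its bound is made from the mean and rests mostly on anti-PD-1 replicate 1. The 5 probes past adjustment in limma were also lower with a bound only, bright on the 2 anti-PD-1 arrays and not well above background on the other 6. They entered the test through the anti-PD-1 arrays alone, and their errors rest mostly on arrays at background. Smyd4, a methyltransferase family member, was at least 6.68-fold lower and Dgki, a diacylglycerol kinase, at least 4.65-fold. Htr5a, a serotonin receptor, was at least 2.48-fold lower, and the transcripts A230055C15 and A830008E24Rik at least 2.87-fold and 1.91-fold.

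Markers of other tissues were read beside these results. The tumor label was held against genes of colon epithelium and carcinoma, of which 12 of 20 were tested. Krt8 and Krt18, keratins of simple epithelia, were well above background on all 8 arrays, whereas Cdx2, an intestinal transcription factor, was so on 1 anti-PD-1 array and no combination array and was called lower (at least 1.78-fold, with 1 of the 2 anti-PD-1 arrays above background). Of 9 epidermal genes 0 were called, 4 were called lower without anti-PD-1 replicate 1 and 1 with the replicate block, and their summed level was 3.29 and 5.67 for anti-PD-1 against 3.19 and 3.16 for the combination. Anti-PD-1 replicate 2 thus stood apart in keratins, as TP-16 replicate 2 did (5.48), and Krt14, Krt17 and Krt5 had log2 fold changes of -4.77 to -3.63 that rest on it. Fewer genes were called higher when anti-PD-1 replicate 2 was left out. The drop was larger without combination replicate 2, which did not stand apart in keratins (summed level 3.16). It was thus not particular to the array with more keratin RNA. Of 8 red blood cell genes 0 were called, with a median 0.47 below that of all genes, and 2 were called lower without combination replicate 2. Of 8 exocrine pancreas genes and of 14 genes of mast cells and eosinophils 0 were called. Of 25 genes of cell division 0 were called. The part of these tissues in the results above was not tested.

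The size of the difference in abundant housekeeping transcripts depended on the scaling. All 20 ribosomal protein genes and all 21 genes of the mitochondrial respiratory chain had negative log2 fold changes with the 75th percentile, with medians 0.59 and 0.25 below that of all genes, and 0.01 and 0.03 below it after quantile normalization, where 4 of the 20 and 7 of the 21 were above 0. Of 24 genes of hypoxia and glycolysis 0 were called, with a median 0.28 below that of all genes, or 0.08 above it after quantile normalization, so that the direction of this list turned. In 9 of them the change with the antibody differed from that without it at an unadjusted p of at most 0.05 in limma (7% of all genes). That count was 2 without TP-16 replicate 2 or combination replicate 2, 3 and 4 without anti-PD-1 replicate 2 and 1, 5 without vehicle replicate 2 and 13 without TP-16 replicate 1. Of 20 interleukins 1 was called, Il16 (1.04), a chemoattractant of CD4+ cells, and 3 were called lower without anti-PD-1 replicate 1.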

How the data were processed

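RNA of whole CT26 tumors was hybridized to 8 one-colour Agilent arrays, 2 per group. The labels give a column kit for RNA extraction and the methods TRIzol. For each array the authors deposited scanner output, with intensities background-subtracted and detrended by Agilent Feature Extraction 10.7.1.1 (per the submitters' notes), and a table of log2 values made in GeneSpring by a normalization that the methods do not name. Its sorted values differed by at most 0.00115 between arrays, as quantile normalization gives, and served as an alternative.

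Spots of a probe were averaged after leaving out controls and the 38 probes that carried an outlier mark on any array. Each array was centred on its own 75th percentile after log2. The test took 31912 of 56567 probes, those well above background on both arrays of some group. All 8 arrays entered 1 fit in limma 3.58.1 (R 4.3.3) with 1 mean per group, empirical Bayes moderation, no block, and 4 residual degrees of freedom. Contrasts were combination minus anti-PD-1, TP-16 minus vehicle, and the difference of both. Precision is limited by the number of arrays, and p-values measure the spread between these samples only. A bound sets the mean of the bright group against the dimmest probes well above background on the dim arrays, or the probe's own value if higher. Gene symbols came from RefSeq (GRCm38.p6) for 32971 probes (58.3%) and from the array otherwise; probe positions are mm9. Promoter windows (250 bases before to 50 after the start) came from RefSeq.

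The comparison, the 35 gene lists and the rule for named genes were chosen with earlier results of these data known. Of 663 listed names, 651 have a probe and 587 were tested. The rule names the 15 largest rises and falls as described in the report, up to 5 bounded genes in each direction, every probe past adjustment, 14 genes of the study or of the drug targets, and up to 4 called members of a list; other list members were named after their values were seen. Alternatives were a fold of 1.5, the methods' t-test, quantile normalization, the authors' log2 values, normexp background correction (offset 50), a fit of the 2 groups only, robust moderation with a trend, 1 probe per gene, dim probes kept, only probes bright on all 8 arrays, the replicate number as a block, and each array left out in turn. A slide block was not possible, since all arrays share 1 slide and 1 scan. The calculations were tested on simulated data. Figures were drawn in Python 3.11.15 with matplotlib 3.10.9.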

Additional observations from a re-analysis of the deposited data

How the results depend on the processing

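The main count of 1364 probes called between the combination and anti-PD-1 was 625 with normexp background correction, 2540 without a filter on dim probes, 775 for probes above background on all 8 arrays, 584 with the methods' t-test and 4381 at a fold of 1.5. Leaving out 1 array gave 565 (combination replicate 2) to 2132 (combination replicate 1). After adjustment the 5 probes, 0 of them higher, became 10 (3 higher) with quantile normalization and with the authors' log2 values, 427 (180 higher) with normexp, 266 (96 higher) for probes above background on all 8 arrays, 430 (190 higher) with trended and robust moderation, 3 with 1 probe per gene and 0 with the 2 groups only or the methods' t-test (6049 without adjustment or fold limit). Leaving out 1 array gave 0 to 7. The share of calls that were higher, 53.8%, was 71.0% with quantile normalization and with the authors' values, 34.2% without the filter and 36.6% at a fold of 1.5, and 36.2% to 57.9% with 1 array left out. The 0 probes that differed between TP-16 with and without antibody became 14 with quantile normalization and with the authors' values, and 0 to 13 with 1 array left out (13 without vehicle replicate 2). The 404 calls shared with TP-16 alone became 218 with normexp, 727 without the filter, 214 for probes above background on all 8 arrays, 42 with the methods' t-test, 1494 at a fold of 1.5, and 174 to 571 with 1 array left out. Of the 43 named genes, Lamp1 turned to 0.36 with quantile normalization and with the authors' values, and Ptger1 to -0.38 with normexp. Of these genes 18 no longer passed with the methods' t-test, 18 without combination replicate 2, and 11 and 13 without anti-PD-1 replicate 1 and 2. The cause of these shifts was not tested.

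The deviations of same-numbered replicates correlated across probes at -0.19 for the combination and anti-PD-1, the lowest of the pairs of groups, and at 0.29 for the highest, so the numbers were not taken to pair the samples. With the replicate number as a block, 1420 probes were called, 6 after adjustment, with 49.0% higher, 0 differing between settings and 483 shared. With crossed numbers, chosen after seeing the data, 1538 were called, 3 after adjustment. Where 1 array was left out, the lone array was taken to vary like the other groups. The number of arrays and the brightness over background set the limits: 26683 probes passed the background mark on each of the 8 arrays, and genes dim in a group have bounds only.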
